A study of Mus musculus with 4 samples.

Results

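The endoplasmic reticulum stress and amino acid response was examined in the livers of hepatic reductase null mice and control mice through 10 genes, namely the chaperones Hspa5 and Hsp90b1, the lectin chaperones Calr and Canx, the disulfide isomerases Pdia3 and Pdia4, the transcription factors Xbp1, Atf4 and Ddit3, and the asparagine synthetase Asns. The genes were chosen by symbol in the annotation of the Affymetrix MG_U74Av2 array, where all 10 were present, out of 8251 genes with a single name. On the array 12 probe sets carried them, out of 12422 without the manufacturer's controls, with 2 probe sets each for Canx and Asns. Of these 12 probe sets, 10 passed the filter on dim signals and were tested. The other 2, the Calr probe set and the second Asns probe set, are given as signals only.

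Whole liver RNA of 2 null samples (replicates 7 and 8) and 2 control samples (replicates 7 and 8) was hybridised to 1 array each. In the published line that bears this name, Cre driven by the albumin promoter removes NADPH-cytochrome P450 oxidoreductase (Por), the electron donor of microsomal P450 enzymes, from hepatocytes, and the other liver cells keep the gene. The labels name the genotype only as hepatic reductase null or control, give no sex, age, diet or Cre status, and no probe set of the annotation names Por, so the genotype was not checked against it. Per the labels each experiment pooled 3 animals of a genotype, but the titles of the controls name a single mouse, and all p-values measure only the spread between these samples.

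When unfolded proteins build up in the endoplasmic reticulum, 3 membrane sensors act. IRE1 splices the Xbp1 messenger, ATF6 is cut to an active factor, and together XBP1 and ATF6 drive chaperone, folding and degradation genes. PERK phosphorylates the initiation factor eIF2-alpha, which lowers general translation while the Atf4 messenger is translated more, and the kinase GCN2 does the same when amino acids run short. ATF4 then drives amino acid genes such as Asns and, under sustained stress, Ddit3, which encodes the pro-apoptotic factor CHOP. In hepatocytes, which secrete most plasma proteins, this response is set against a high basal load of folding. The array reads total messenger of a gene, so neither the splicing of Xbp1 nor the translation of Atf4 was measured.

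The promoters of several of the 10 genes hold the letters that ATF6 and ATF4 are known to bind, and they are shown here because the signals described afterwards fall on genes with and without them. Each window runs from 250 bases before to 50 bases after the gene's start and comes from RefSeq, build GRCm38.p6, in which all 10 genes had a window. The endoplasmic reticulum stress response element (ERSE) was searched on both strands as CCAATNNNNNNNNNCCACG. It was found in 4 of the 10 windows (Hspa5, Hsp90b1, Calr and Canx), and 0.119% of all 32851 windows hold it. The C/EBP-ATF response element (CARE), the site of ATF4 with its partners, was searched as TGATGNAA and was found in Asns alone among the 10, where 3.97% of all windows hold it. The CCACG part of the ERSE on its own is common, at 32.8% of all windows, and occurred outside an ERSE in Pdia4, Atf4 and Asns. The XBP1 element UPRE, searched as TGACGTGG, was in 0 of the 10 windows and in 0.676% of all. These are matches of letters in a short window and do not show binding.

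The windows of Hspa5 (chr2:34771840-34772139, plus strand), Hsp90b1 (chr10:86705395-86705694, minus strand) and Asns (chr6:7693160-7693459, minus strand) are printed on the strand of the gene. These genes hold an ERSE or a CARE and had higher signals on both null arrays than on both control arrays. Canx, which also holds an ERSE, overlapped between the groups on both probe sets, and Calr, another, was too dim to test. Hsp90b1 was only 1.09-fold higher. Whether an element goes with a change in signal was not tested. Ddit3 also had higher signals on both null arrays, but its window holds none of the searched elements and is not printed. Capitals mark the ERSE in the chaperones and the CARE in Asns. Hspa5 has 1 ERSE, from -65 to -47 relative to its start. Hsp90b1 has 2, from -212 to -194 on its own strand and from -107 to -89 on the other strand, where it reads as its reverse complement. The CARE of Asns lies from -23 to -16.
Hspa5: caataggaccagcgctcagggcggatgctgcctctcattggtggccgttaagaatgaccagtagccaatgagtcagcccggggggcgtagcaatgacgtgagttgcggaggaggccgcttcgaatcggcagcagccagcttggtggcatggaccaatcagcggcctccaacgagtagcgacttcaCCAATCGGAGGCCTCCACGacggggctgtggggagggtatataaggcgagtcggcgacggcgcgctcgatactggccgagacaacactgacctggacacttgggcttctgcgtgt
Hsp90b1: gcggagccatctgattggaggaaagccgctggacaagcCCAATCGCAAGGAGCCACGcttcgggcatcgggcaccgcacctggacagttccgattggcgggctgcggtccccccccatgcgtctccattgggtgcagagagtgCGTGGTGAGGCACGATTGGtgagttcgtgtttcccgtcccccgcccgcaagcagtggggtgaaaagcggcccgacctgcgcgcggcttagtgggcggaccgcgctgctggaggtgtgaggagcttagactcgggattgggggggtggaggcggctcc
Asns: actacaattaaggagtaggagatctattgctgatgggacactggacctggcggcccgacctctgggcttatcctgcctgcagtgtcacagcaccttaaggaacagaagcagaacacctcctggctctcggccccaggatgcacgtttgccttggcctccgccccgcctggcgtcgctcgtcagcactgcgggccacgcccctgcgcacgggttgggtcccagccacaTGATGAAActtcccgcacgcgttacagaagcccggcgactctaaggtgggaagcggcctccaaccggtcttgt

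The ERSE of the lectin chaperones are shown beside those of Hspa5 and Hsp90b1 so that the letters of the element can be compared between genes. Capitals mark the CCAAT and CCACG boxes, or their reverse complements in the site on the other strand. The Calr site lies from -162 to -144 (chr8:84847075-84847093, minus strand gene) and the Canx site from -145 to -127 (chr11:50325800-50325818, minus strand gene).
Hspa5 ERSE: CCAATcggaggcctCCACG
Hsp90b1 ERSE, distal: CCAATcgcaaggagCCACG
Hsp90b1 ERSE, proximal: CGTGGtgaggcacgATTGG
Calr ERSE: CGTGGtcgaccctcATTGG
Canx ERSE: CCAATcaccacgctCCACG

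**Figure D1:**
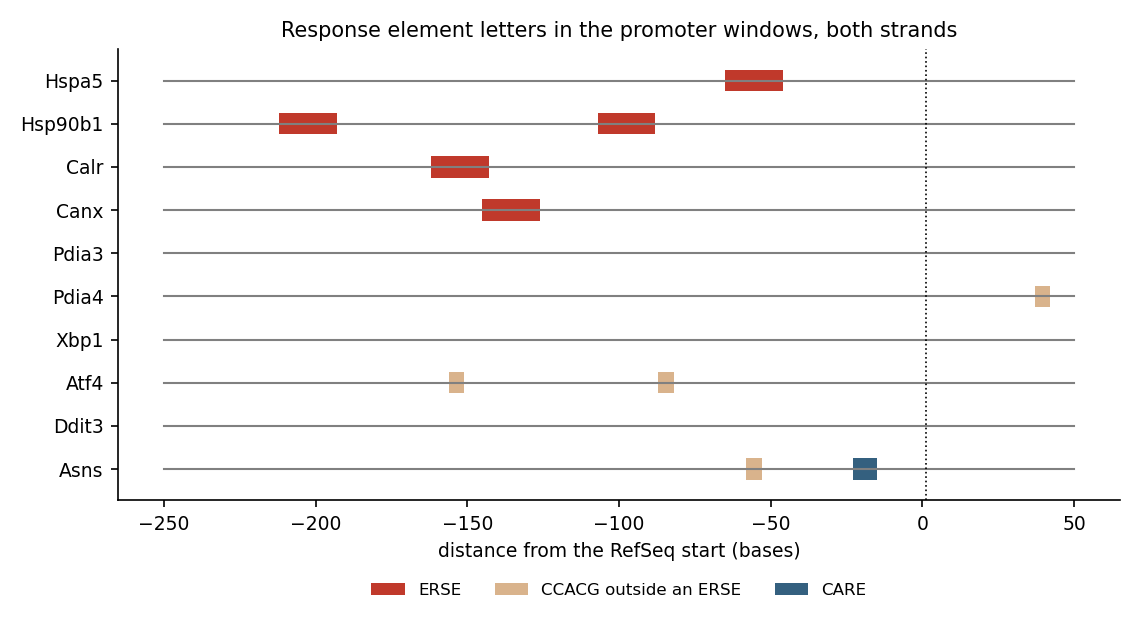
Positions of the searched elements in the promoter windows of the 10 genes, with the distance from the RefSeq start in bases on the x axis and 1 line per gene. Red bars are ERSE, blue a CARE and tan a CCACG outside an ERSE, so 4 windows carry an ERSE, Asns carries the only CARE, and the Pdia3, Xbp1 and Ddit3 windows carry none of the searched letters.

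The chips were already scaled to a common level, with median signals of 27.2 and 28.4 on the null arrays and 26.1 and 26.7 on the control arrays. The 3' to 5' signal ratio of the Gapdh control probe sets, a sign of RNA integrity, was 1.23 and 1.13 on the null arrays and 1.28 on both control arrays. The same ratio for actin was 1.56 and 1.37 on the null arrays and 1.48 and 1.52 on the control arrays, with null replicate 7 the highest array. In limma, 7241 probe sets were tested and 22 rose (0.304%) and 6 fell (0.0829%) in null liver after adjustment (threshold 0.05), 0.387% together. The hepatocyte markers Alb (9809 and 9109 on the null arrays, 8991 and 9729 on the control arrays) and Apoa1 (9463 and 9017 on the null arrays, 9352 and 8698 on the control arrays) were bright throughout and overlapped between the groups. Of all 12 hepatocyte markers tested, 9 had both null arrays below both control arrays and 0 had both above. Among all tested probe sets 23.4% lay below and 20.4% above. The median log2 change of the hepatocyte markers was -0.15, and 0 passed the threshold. The lowest were Ttr, the thyroid hormone carrier transthyretin, at -0.63 (adjusted p = 0.136), and Tdo2, a tryptophan-degrading enzyme, at -0.38 (adjusted p = 0.0759). Null replicate 7 stood apart for pancreatic acinar markers. Their summed signal over the 18 of 33 listed genes that were measured was 4367 on null replicate 7 and 690 on null replicate 8, against 591 and 818 on the control arrays. Ctrb1, the leading marker, lay at 1307 and 78.7 on the null arrays and 58 and 71.8 on the control arrays. All 14 tested acinar markers had a positive log2 change and 0 passed the threshold, with a median of 1.18. Among all tested probe sets 48.9% were positive. Some of these markers met the filter on dim signals only through null arrays, such as Prss2 (2.3 and 9.3 on the control arrays) and Reg1 (5.7 and 11.8). The count of positive acinar markers is therefore not taken as support for a rise. Acinar cells are rich in endoplasmic reticulum chaperones, so several of the results described next are also given without that array. Single genes of the pathway lists described later, other than Fkbp11, are not given without it.

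None of the 10 genes passed the threshold in limma, with 0 of 10 tested probe sets higher and 0 lower (adjusted p under 0.05). At an unadjusted p under 0.05, Hspa5 and Asns were higher and Xbp1 was lower, 3 of 10 probe sets, where 12.6% of all tested probe sets reached that level (6.16% higher and 6.46% lower). The null arrays lay above the control arrays for 4 of the 10 probe sets (Hspa5, Hsp90b1, Ddit3 and Asns) and below them for 1 (Xbp1), against 20.4% above, 23.4% below and 43.8% together among all tested probe sets. The median log2 change of the 10 probe sets was 0.04, with 5 positive and 5 negative, and that of all tested probe sets was -0.01. Counted per gene, with the brightest probe set for Canx, the median of the 9 tested genes was 0.10. The median over the 10 probe sets moved to between 0.07 and 0.15 when 1 array was left out.

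**Figure D2:**
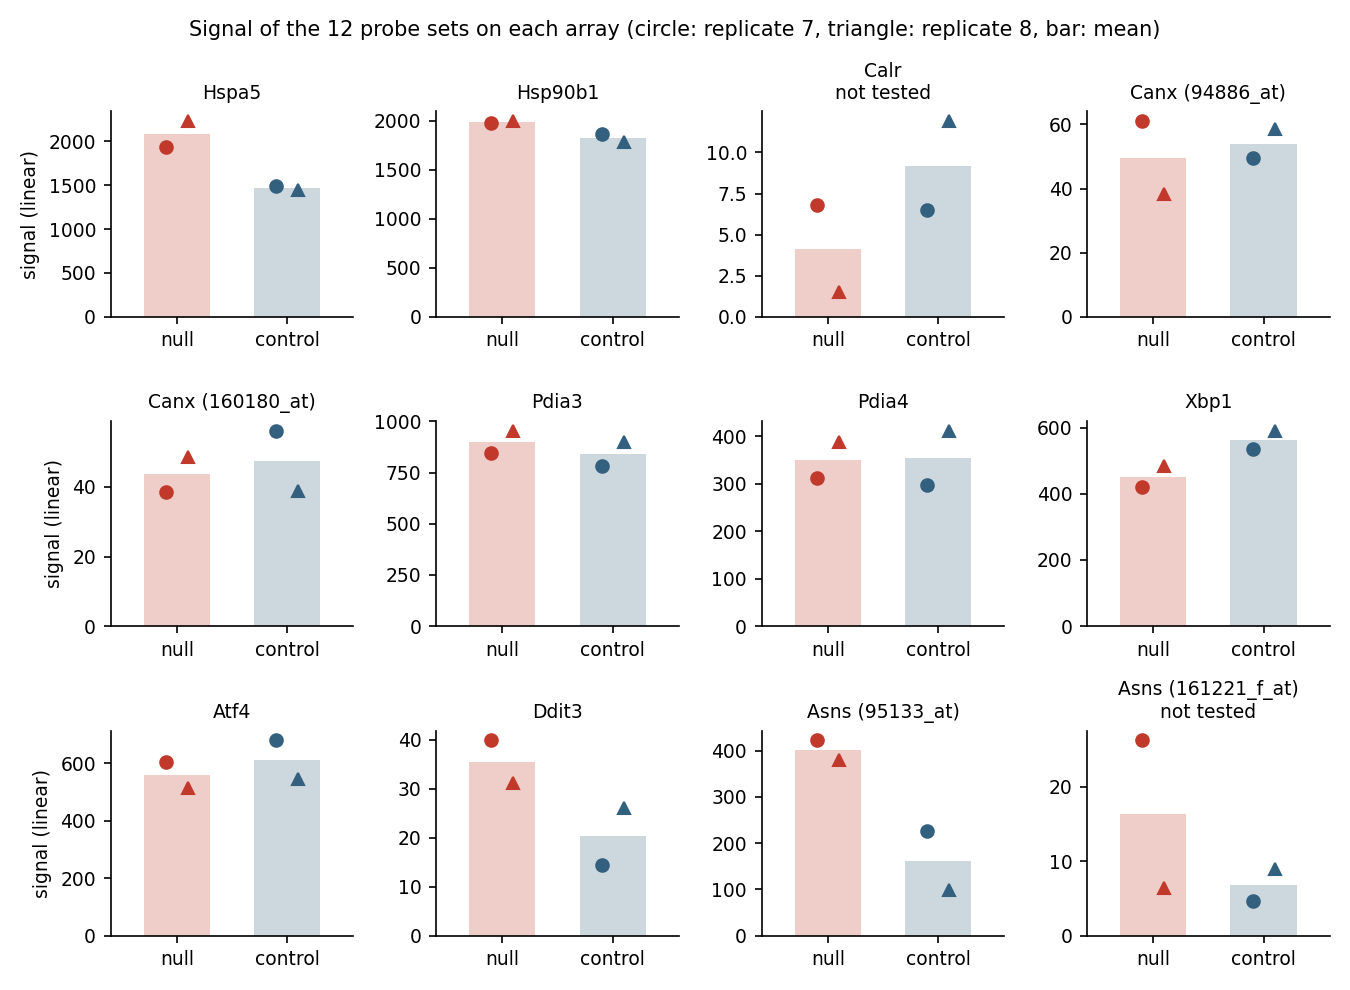
Signal on the linear scale for the 12 probe sets, with null arrays on the left and control arrays on the right of each panel, circles for replicate 7, triangles for replicate 8 and bars for the mean of 2 arrays. Hspa5, Hsp90b1, Ddit3 and the bright Asns probe set have both null points above both control points, Xbp1 has both below, and the others overlap.

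Hspa5 encodes BiP, the HSP70 chaperone of the endoplasmic reticulum lumen that also holds the 3 stress sensors inactive. Its signal was 1937 and 2231 on the null arrays, against 1491 and 1441 on the control arrays. Both null signals were above both control signals, and the null arrays differed from each other (0.20 on the log2 scale) more than the control arrays did (0.05). The mean was 2084 ± 208 in null liver and 1466 ± 35.6 in control liver (SD, n = 2 each), a log2 change of 0.50 ± 0.10 (SE), or 1.42-fold with a 95% interval of 1.21 to 1.66. In limma the adjusted p over all probe sets was 0.0969, so the gene missed the threshold although its unadjusted p (0.0013) ranked 96 among the 7241. The log2 change was 0.61 without null replicate 7 and 0.40 without null replicate 8.

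Hsp90b1 encodes GRP94, the HSP90 paralogue of the same compartment, which folds integrins and Toll-like receptors. It had signals of 1980 and 1996 on the null arrays and 1870 and 1783 on the control arrays. The groups did not overlap, but the difference was small, at 1.09-fold with a 95% interval of 0.958 to 1.24 (log2 change 0.12 ± 0.08, SE, adjusted p = 0.572 in limma). Without null replicate 7 the log2 change was 0.13.

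Calr and Canx encode calreticulin and calnexin, the soluble and the membrane-bound lectin that retain glycoproteins until they fold. The Calr probe set lay at 6.8 and 1.5 on the null arrays and 6.5 and 11.9 on the control arrays, at or below the floor of 7.1 on 3 of the 4 arrays. This probe set therefore gave no usable level for calreticulin in either group. Canx was dim but above the floor on all arrays, at 61 and 38.2 on the null arrays and 49.5 and 58.5 on the control arrays for its brighter probe set, and at 38.5 and 48.7 on the null arrays and 56.1 and 38.8 on the control arrays for the other. Both overlapped between the groups, and the 2 probe sets ranked the replicates in opposite order within each genotype. Their log2 changes were -0.16 ± 0.29 and -0.11 ± 0.28 (SE), with intervals of 0.559 to 1.44-fold and 0.582 to 1.48-fold.

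Pdia3 encodes ERp57, the disulfide isomerase that works with the lectins, and Pdia4 encodes ERp72, an isomerase of the BiP complex. Pdia3 had signals of 847 and 954 on the null arrays and 780 and 901 on the control arrays. Pdia4 had 311 and 387 on the null arrays and 297 and 411 on the control arrays. Both overlapped between genotypes, and in both, as in Xbp1, replicate 8 was the higher array within each genotype. The log2 change was 0.10 ± 0.12 for Pdia3 and -0.01 ± 0.19 for Pdia4 (SE), with intervals of 0.884 to 1.30-fold and 0.724 to 1.36-fold.

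Xbp1 encodes the factor that the sensor IRE1 activates by splicing, and it was the only one of the 10 genes whose null arrays both lay below both control arrays. Its signals were 421 and 483 on the null arrays and 536 and 590.4 on the control arrays. On this linear scale the gap between the groups was smaller than the spread within either of them. The mean was 452 ± 44.2 in null liver and 563 ± 38.5 in control liver (SD, n = 2 each), a log2 change of -0.32 ± 0.12 (SE), with an adjusted p of 0.355 in limma. It was negative in all 4 fits that left out 1 array, at -0.42 to -0.22, and -0.22 without null replicate 7.

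Atf4, the factor that is induced mainly by translation, had signals of 604 and 513 on the null arrays and 680 and 544 on the control arrays. The groups overlapped, with replicate 7 higher in both genotypes, and the log2 change was -0.13 ± 0.15 (SE, adjusted p = 0.769 in limma). Ddit3 was dim in all samples, at 39.9 and 31.2 on the null arrays and 14.5 and 26.1 on the control arrays. The null signals were higher than both control signals, but the control signals themselves differed by 0.85 on the log2 scale, as much as the change between genotypes of 0.86 ± 0.42 (SE, 1.81-fold, interval 0.911 to 3.61, adjusted p = 0.458 in limma). Without control replicate 7 the log2 change of Ddit3 was 0.43, and without control replicate 8 it was 1.28. Without null replicate 7 it was 0.68.

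Asns, which makes asparagine from aspartate and glutamine and is a classical target of ATF4, had the largest estimate of the 10 genes. Its brighter probe set lay at 422 and 379.7 on the null arrays, against 226 and 98.5 on the control arrays. The null arrays were close to each other and both above the controls, while the control arrays differed 1.20 on the log2 scale. The mean was 401 ± 30.2 in null liver and 162 ± 90.1 in control liver (SD, n = 2 each), a log2 change of 1.42 ± 0.35 (SE) with a 95% interval of 0.59 to 2.26, or 2.68-fold. The adjusted p in limma was 0.168. The estimate depended on the control arrays: without control replicate 7 it was 2.02 and passed (adjusted p = 0.0253), and without control replicate 8 it was 0.83 (adjusted p = 0.248). Without null replicate 7 it was 1.35. The other Asns probe set, of a kind (_f_at) that can also bind related transcripts, lay at 26.2 and 6.4 on the null arrays and 4.7 and 9 on the control arrays, too dim to test.

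**Figure D3:**
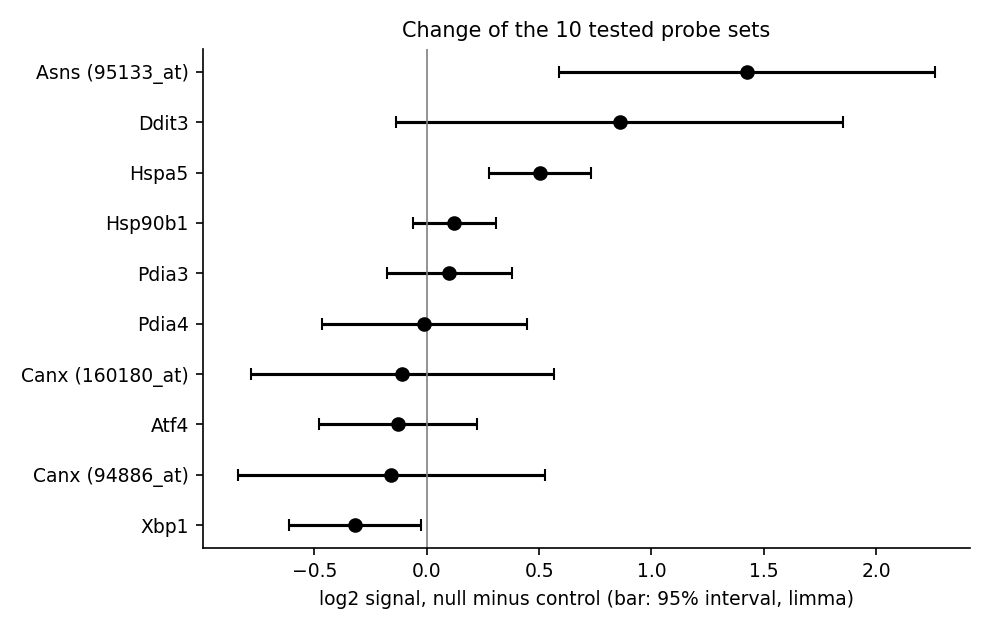
Log2 change, null minus control, of the 10 tested probe sets on the x axis, with points for the limma estimate and bars for the 95% interval. Asns at 1.42 and Hspa5 at 0.50 have intervals above 0, Xbp1 at -0.32 has one just below 0, and the others span 0; none passed after adjustment over 7241 probe sets.

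**Figure D4:**
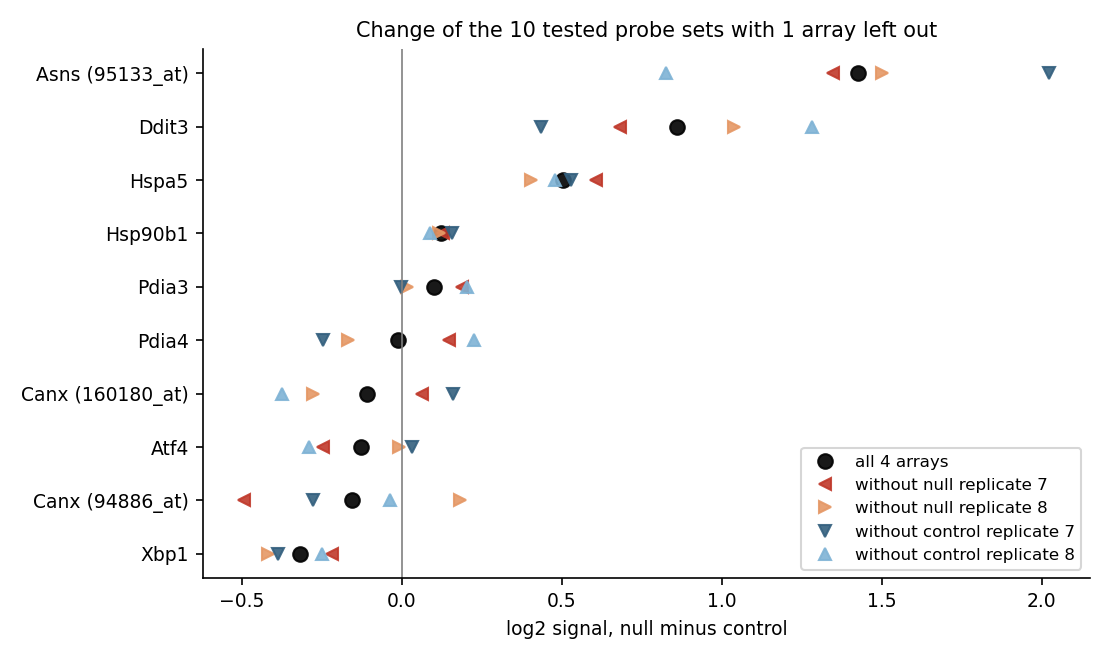
Log2 change, null minus control, of the same 10 probe sets with all 4 arrays (black circles) and with each array left out in turn (triangles). Hspa5 (0.40 to 0.61), Hsp90b1 (0.09 to 0.16), Ddit3 (0.43 to 1.28), Asns (0.83 to 2.02) and Xbp1 (-0.42 to -0.22) keep their sign, and Canx, Pdia3, Pdia4 and Atf4 cross 0.

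Other genes of the same pathways were described by 6 lists, each gene by its brightest tested probe set. In limma over all probe sets 0 genes of these lists passed in either direction, so the following are levels and counts. A gene can stand in 2 lists, as Atf5, Cebpb, Cebpg and Herpud1 do. The shares of all tested probe sets whose null arrays lay above or below the control arrays, 20.4% and 23.4%, are the background of each count of groups that do not overlap, and 6.16% and 6.46% are that of the counts higher and lower at an unadjusted p under 0.05.

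Of the other chaperones and folding enzymes, 28 of 29 measured genes were tested, 21 with a positive and 7 with a negative log2 change and a median of 0.13. The null arrays lay above the control arrays in 12 of them (42.9%) and below in 3 (10.7%). Of the 12, Nucb2 met the filter on dim signals only through the null arrays, with 22.6 and 10.4 on the control arrays. At an unadjusted p under 0.05 in limma, 4 genes of the list were higher (Fkbp11, Ppib, Manf and Dnajb11) and 1 lower (Ero1b). The median was 0.21 without null replicate 7 and 0.10 without null replicate 8. Fkbp11, a prolyl isomerase of secretory cells, had the smallest p. Its signals were 239 and 252 on the null arrays and 142 and 133 on the control arrays, without overlap, and its log2 change was 0.84 ± 0.14 (SE, adjusted p = 0.0763 in limma). Without null replicate 7 it was 0.87. Ppib, cyclophilin B, had signals of 1171 on both null arrays and 918 and 957 on the control arrays, with a log2 change of 0.32 ± 0.09 (adjusted p = 0.217). Manf, a secreted stress-induced factor of the endoplasmic reticulum, was at 0.38 (588 and 565 on the null arrays, 466 and 422 on the control arrays), and Dnajb11, a co-chaperone of BiP, at 0.40 (265 and 293 on the null arrays, 226 and 197 on the control arrays). Ero1b, an oxidase that recharges disulfide isomerases, went the other way, with signals of 227 and 194 on the null arrays and 363 and 289 on the control arrays and a log2 change of -0.62 ± 0.16 (adjusted p = 0.195), on a probe set of the _f_at kind that can also bind related transcripts. The other genes of this list below the controls on both null arrays were Dnajc3, an inhibitor of PERK (-0.27), and Ero1a, the paralogue of Ero1b (-0.17). The other tested probe sets of Dnajc3 disagreed, at -0.39 without overlap and at 0.16 with overlap.

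Of the genes of translocation into the endoplasmic reticulum, glycosylation and degradation, 34 of 35 measured were tested, 21 positive and 13 negative, with a median log2 change of 0.15. The null arrays lay above the control arrays in 13 (38.2%) and below in 3 (8.82%). Of the 13, Srprb met the filter on dim signals only through the null arrays, with 12.8 and 14.1 on the control arrays. At an unadjusted p under 0.05 in limma, 4 genes of the list were higher (Sec61b, Spcs2, Sec61a1 and Sec11a) and 2 lower (Derl2 and Rpn2). The 3 of smallest p belong to entry and signal peptide cleavage. Sec61b, a subunit of the translocation channel, had signals of 815 and 829 on the null arrays and 674 and 582 on the control arrays, a log2 change of 0.39 ± 0.11 (SE, adjusted p = 0.232 in limma). Sec61a1, the pore of that channel, was at 0.35 ± 0.11 (adjusted p = 0.257) and at 0.23 ± 0.12 on its other probe set, both without overlap. Spcs2, of the signal peptidase, was at 0.53 ± 0.16 (adjusted p = 0.252). Sec11a, the catalytic subunit of that peptidase, was at 0.44 (366 and 458 on the null arrays, 306 and 296 on the control arrays). The genes below the controls on both null arrays were Derl2, of the export channel for misfolded proteins (-0.38), Rpn2, of the oligosaccharyl transferase (-0.28), and Herpud1 (-0.22). The Rpn2 probe set is of the _f_at kind, and the other tested probe set of Rpn2 overlapped between the groups, at -0.13. The median of this list was 0.03 without null replicate 8, 0.08 without control replicate 7 and 0.16 without null replicate 7.

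Among the sensors and transcription factors negative changes outnumbered positive ones. Of 21 tested genes 6 were positive and 15 negative, with a median log2 change of -0.16, and the null arrays lay above the control arrays in 0 and below in 8 (38.1%), with 0 higher and 4 lower (Cebpa, Eif2s3x, Nfyb and Atf5) at an unadjusted p under 0.05 in limma. The median was -0.27 without null replicate 7. The liver factor Cebpa had signals of 2538 and 2474 on the null arrays and 3179 and 3065 on the control arrays, a log2 change of -0.32 ± 0.07 (SE, adjusted p = 0.141). Eif2s3x, a subunit of eIF2, was at -0.47 ± 0.12 (adjusted p = 0.168), and Nfyb, a subunit of the factor that binds the CCAAT box of the ERSE, at -0.60 ± 0.17 (adjusted p = 0.245). The sensors Atf6 (66.9 and 96.6 on the null arrays, 80.6 and 70.1 on the control arrays) and Eif2ak3, which encodes PERK (22.2 and 27.9 on the null arrays, 17.1 and 25.1 on the control arrays), overlapped between the groups.

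Genes downstream of ATF4 and CHOP held both high and low values. Of 15 tested, 8 were positive and 7 negative, with a median log2 change of 0.01, the null arrays above in 3 (20%; Atf3, Map1lc3b and Sqstm1) and below in 6 (40%), and 1 higher (Atf3) and 1 lower (Atf5) at an unadjusted p under 0.05 in limma. The median was -0.10 without null replicate 8 and -0.07 without control replicate 8. Atf3, a stress-induced factor, had the highest change of the list, at 56.5 and 52.6 on the null arrays and 16.5 and 21.3 on the control arrays, a log2 change of 1.54 ± 0.30 (SE, adjusted p = 0.101). Its probe set is of the _f_at kind, and another, too dim to test, lay at 12.8 and 22 on the null arrays and 3.9 and 4.8 on the control arrays. Atf5, a factor induced by ATF4, was at -0.40 ± 0.15 (adjusted p = 0.341), and Herpud1, of endoplasmic reticulum degradation, at -0.22 ± 0.09 (adjusted p = 0.407). Both had null signals below control signals, as did Trib3, a pseudokinase induced by ATF4 and CHOP (25 and 32.9 on the null arrays, 45.7 and 41.3 on the control arrays), and Ppp1r15a, which encodes the eIF2-alpha phosphatase subunit GADD34 (35.4 and 47.6 on the null arrays, 54.9 and 51.2 on the control arrays). The autophagy genes Map1lc3b and Sqstm1 were above the controls by 0.15 and 0.09 on the log2 scale.

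The other amino acid genes were described without Asns. Of 14 tested genes of amino acid synthesis and uptake, 5 were positive and 9 negative, with a median log2 change of -0.28 and the highest at 0.64, the null arrays above in 4 (28.6%) and below in 5 (35.7%), and 0 higher and 3 lower at an unadjusted p under 0.05 in limma. This median was 0.01 without control replicate 7 and -0.17 without null replicate 7. Slc7a7, a cationic amino acid exchanger, was at -0.82 ± 0.24 (SE, adjusted p = 0.247), Slc38a2, a neutral amino acid carrier, at -0.45 ± 0.18 (adjusted p = 0.37) and Slc3a2, the heavy chain that carries several exchangers to the membrane, at -0.34 ± 0.14 (adjusted p = 0.38). All 3 had both null signals below both control signals, as had the mitochondrial folate enzymes Shmt2 (-0.33) and Mthfd2 (-0.44). The carriers Slc1a4, Slc1a5, Slc38a4 and Slc7a2 were above the controls, at 0.64, 0.52, 0.11 and 0.09. Slc1a5 met the filter on dim signals only through the null arrays, with 15.4 and 16.7 on the control arrays. Shmt1, the cytosolic serine hydroxymethyltransferase, overlapped on its bright probe set, at 368 and 388 on the null arrays and 375 and 350.5 on the control arrays (0.06). Its other probe set, too dim to test, lay at 25.4 and 18.3 on the null arrays and at or below the floor on the control arrays (5.5 and 7.1), a difference larger than that of any tested gene of the list.

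Of 18 tested aminoacyl-tRNA synthetases, which charge transfer RNAs and many of which are ATF4 targets, 15 had a negative log2 change and 3 (Wars, Vars and Farsa) a positive one, with a median of -0.23. The null arrays lay below the control arrays in 9 (50%) and above in 1 (5.56%; Wars, for tryptophan, at 0.43), and 0 were higher and 3 lower (Tars, Cars and Mars1) at an unadjusted p under 0.05 in limma. Tars, for threonine, had signals of 133 and 180.3 on the null arrays and 231 and 265 on the control arrays, a log2 change of -0.68 ± 0.19 (SE, adjusted p = 0.216). Cars, for cysteine, was at -0.75 ± 0.21 (adjusted p = 0.23), and Mars1, for methionine, at -0.46 ± 0.17 (adjusted p = 0.344). Without control replicate 7 the median was -0.11, with 12 of 18 negative, and without null replicate 7 it was -0.16, with 11 of 18 negative.

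**Figure D5:**
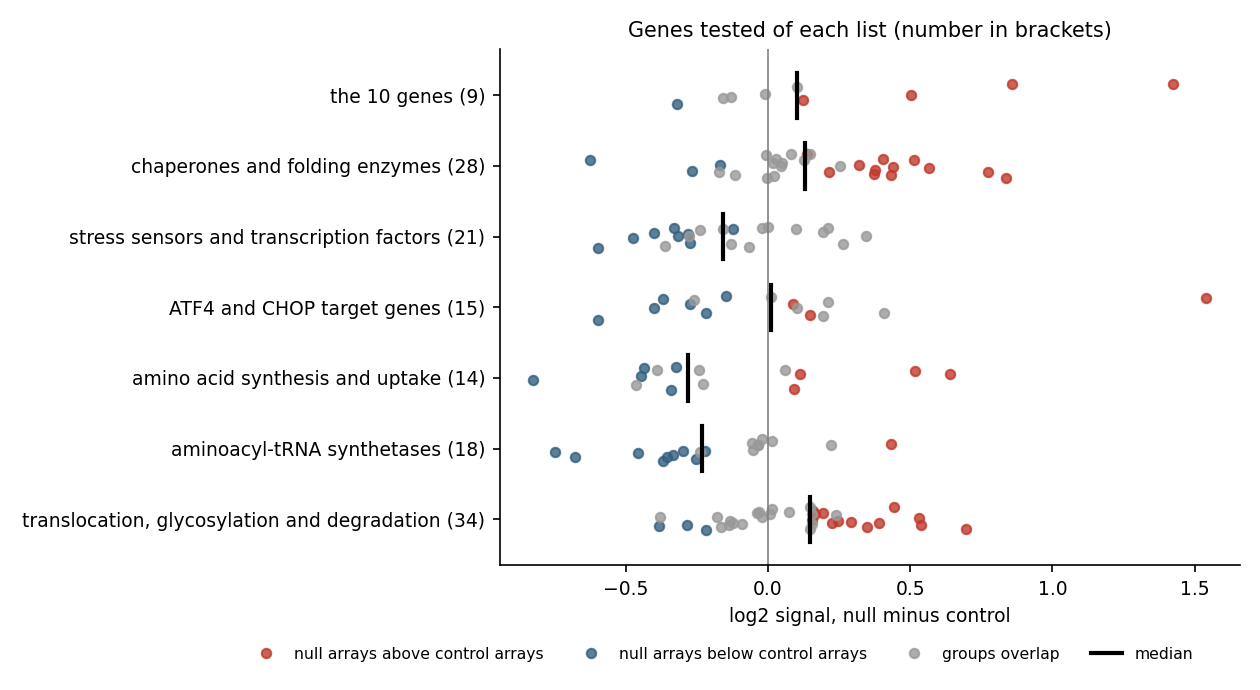
Log2 change, null minus control, of every tested gene of the 10 genes and of the 6 further lists, 1 point per gene with its vertical place within a row arbitrary. Red points have both null arrays above both control arrays, blue points both below, grey points overlap, and black bars are medians, at 0.13 for chaperones and folding enzymes, 0.15 for translocation, glycosylation and degradation, and -0.23 for aminoacyl-tRNA synthetases.

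Markers of other cell types were set beside these values, since in whole liver a change in the share of a cell type and a change in RNA per cell cannot be told apart. Plasma cells have an expanded endoplasmic reticulum, and the 9 of 16 B and plasma cell markers that were measured summed to 387 and 408 on the null arrays and 353 and 345 on the control arrays. The 2 brightest of them were Sdc1, a surface proteoglycan, and Ighm, the immunoglobulin heavy chain mu. Sdc1 lay at 158 and 152 on the null arrays and 118 and 125 on the control arrays. Ighm lay at 74.5 and 69.1 on the null arrays and 91.2 and 78.5 on the control arrays. Jchain, the joining chain of immunoglobulins, overlapped, at 9.2 and 31.5 on the null arrays and 19.8 and 34.7 on the control arrays (log2 change -0.62). Of 6 tested genes 4 had a positive log2 change, with a median of 0.29, and 0 passed. The null arrays lay above the control arrays in 3 (Sdc1, Cd79a and Ms4a1) and below in 1 (Ighm). Among all tested probe sets these shares were 20.4% and 23.4%. The 18 of 20 Kupffer cell and macrophage markers summed to 3783 and 4182 on the null arrays and 3026 and 3015 on the control arrays, and the 14 of 16 stellate cell and fibroblast markers to 1743 and 2055 on the null arrays and 1354 and 1436 on the control arrays. Of 16 tested macrophage markers 15 had a positive log2 change, with a median of 0.29, and 2 passed. The null arrays lay above the control arrays in 12 and below in 0, against 20.4% and 23.4% of all tested probe sets. Fcgr3 and Fcer1g, which the filter left out as too dim, both lay below the controls, at -0.49 and -0.68. The brightest, C1qc and Ctss, were at 0.28 and 0.36 and did not pass, and Clec4f (-0.01) and Csf1r (0.11) overlapped. Mpeg1 passed, at 361 and 378 on the null arrays and 150 and 134 on the control arrays (log2 change 1.38 ± 0.14, SE, adjusted p = 0.021 in limma). The other that passed, the macrophage protease Mmp12, lay at 55.7 and 96.9 on the null arrays and 5.7 and 2.5 on the control arrays. Both control signals were under the floor and so set to the same value, and the filter was met only through the null arrays. Its adjusted p (0.0377 in limma) is therefore not taken as support for a rise. Mmp12 is also counted among the 15 positive markers and the 12 above the controls. Of the 13 tested stellate cell markers 0 passed. The macrophage, stellate cell and B and plasma cell sums were thus higher on both null arrays, with null replicate 8 the higher. Dcn alone made up 1029 and 1183.5 of the stellate cell sum on the null arrays. The sum of 9 of 11 endothelial cell markers was also higher on both null arrays, at 1246 and 1147 against 1035 and 1059 on the control arrays. Eng alone made up 763 and 705 of it on the null arrays, and 4 of 8 tested endothelial cell markers were positive. The sum of 9 of 10 neutrophil markers was 168 and 276 on the null arrays and 179 and 197 on the control arrays. Cholangiocyte markers were too dim to test, with 0 of 5 past the filter. The 12 of 14 hepatocyte markers summed to 53712 and 51297 on the null arrays and 57529 and 56675 on the control arrays. The part of these cell types, and of the acinar signal on null replicate 7, in the values of Hspa5, Fkbp11 or the secretory genes was not tested.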

How the data were processed

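Per the labels, the authors computed probe set intensity on a linear scale with GCOS software and scaled each chip to its total fluorescence. The software version and the target were not given in the sources. Of 12488 probe sets, 66 controls were set aside. Because 2% trimmed means were 100.1 on every array, no further normalisation was applied. Signals under 7.1, the 25th percentile over the 4 arrays, were raised to that floor before taking log2. The filter kept probe sets whose mean of these log2 values was above the log2 of 16.8, the 40th percentile of the signals (7241). The floored log2 scale understates changes of dim genes. The number of arrays limits the precision.

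Symbols came from the platform annotation, brought up to date by gene identifier with the RefSeq table of GRCm38.p6 (10839 matched). A single symbol was held by 10833 probe sets, several by 396, and 1193 are unnamed here. Genotype was tested two-sided with limma 3.58.1 in R 4.3.3 (lmFit and eBayes, trended by intensity), adjusting p by Benjamini-Hochberg over every tested probe set. Prior and residual degrees of freedom were 4.78 and 2. An exact permutation of 2 against 2 arrays cannot give a p under 0.333 and is not reported. The steps were tested on simulated data. Alternatives covered the floor, filter, normalisation, variance trend, replicate block and each array left out. Named are the 10 genes, the 3 of smallest p in each further list and the leading markers. Genes that fill small counts, with Atf6, Eif2ak3, Trib3, Ppp1r15a, Shmt1, Ttr, Tdo2, Jchain, Clec4f, Csf1r, Mpeg1 and Mmp12, were named after their values were seen. The genes, lists and rules were chosen with earlier results of these data known. Protein sequence features were not analysed here.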

Additional observations from a re-analysis of the deposited data

How the results depend on the processing

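With 2 arrays a group, only large changes could pass, and signals near the floor of 7.1 are mostly background. No probe set of the 10 genes passed under any alternative except Asns without control replicate 7, so that their count higher in null liver ranged from 0 to 1 over the fits that left out an array, and the count lower was 0 in every fit run. The count of all probe sets moved from 22 higher and 6 lower to 0 and 0 with a floor at the 50th percentile, without the filter on dim probe sets or without an intensity trend in limma, where 955, 1208 and 747 had an unadjusted p under 0.05. The lower count was 15 with a filter at the 60th percentile and 12 with quantile normalization, and with an array left out 10 to 13 were higher and 0 to 4 lower. The median log2 change of the 10 genes' tested probe sets was -0.0106 with the filter at the 60th percentile, which leaves out Ddit3, and 0.0656 to 0.146 with an array left out. The replicate numbers are shared between genotypes but nothing in the labels pairs them. Deviations of same-numbered arrays correlated at -0.03 over 7241 probe sets. With the replicate number as a block, 37 probe sets were higher and 15 lower, none of them of the 10 genes (Asns adjusted p = 0.0747, Hspa5 0.105). Estimates near 0 turned sign: with an array left out Canx ranged from -0.494 to 0.181, Pdia3 from -0.0031 to 0.204, Pdia4 from -0.246 to 0.224 and Atf4 from -0.290 to 0.0328, and Pdia4 was at 0.0181 with quantile normalization. A probe set of Slc38a2 too dim to test was at 0.447. The cause of these shifts was not tested. Of 109 values of the 9 tested genes under the alternatives, 102 kept their sign and stayed on their side of the threshold. These values leave out the fits without an array for the less bright Canx probe set. It was at -0.11 with all arrays, but at 0.06 without null replicate 7 and 0.16 without control replicate 7.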
